A study of Mus musculus with 4 samples.

Results

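Interferon-signature neutrophils are lung neutrophils in which several interferon-stimulated genes are on at once. They were taken here by a rule on raw UMIs (unique molecular identifiers, each counting 1 captured RNA molecule). A barcode counted as a neutrophil when it had at least 200 genes, at most 10% of UMIs from mitochondrial genes and at least 1% of UMIs from S100a8 and S100a9. It also had to hold at least 3 of the 6 neutrophil genes Retnlg, Csf3r, G0s2, Mmp9, Il1r2 and Cxcr2, and no UMI of Cd79a or Cd3e, which mark B and T cells. Of 1914 such neutrophils, the 206 with at least 3 of the 5 genes Rsad2, Ifit1, Ifit3, Isg15 and Slfn4 were the signature cells, and 1708 were not. The whole series had 16528 barcodes, of which 15181 passed the limits on genes and mitochondrial UMIs. The members were thus chosen by the UMIs of these 5 genes and of the neutrophil genes, whose levels in the signature cells are a description and carry no test.

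The series profiled live CD45.2+ leukocytes, sorted from mouse lung, with the Chromium kit that reads the 3′ ends of transcripts. All mice were C57BL/6J, aged 10 weeks, and carried Lmna-flox/flox, both groups alike. The 2 WT mice were Vav1-cre-/-, and the 2 knockout (KO) mice were Vav1-cre+/-, so that Cre recombinase was made in blood-forming cells and their progeny. Lmna encodes lamins A and C of the nuclear envelope, and the series asked what its loss does to lung immune cells. Which part of Lmna is flanked by the recombination sites, and whether Cre alone has an effect, the labels do not say and no group here tests.

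Type I interferons bind the receptor chains Ifnar1 and Ifnar2, which act through the kinases Jak1 and Tyk2. A complex of transcription factors then forms and binds interferon-stimulated response elements in promoters. The genes it switches on make antiviral proteins, and neutrophils with such a programme are a known state in blood and tissues. Rsad2 encodes viperin, an enzyme that makes a chain-terminating nucleotide. Ifit1 encodes a protein that binds viral RNA caps and Ifit3 its binding partner, Isg15 encodes a ubiquitin-like protein, and Slfn4 encodes a myeloid member of the Schlafen family.

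The promoters of the 5 genes are shown because the letters of the response element set 4 of them apart from most promoters. Each sequence is the 250 bases before the gene's start, 5′ to 3′ on the gene's strand, from RefSeq on GRCm38.p6. Capitals mark matches to GAAANNGAAA or its reverse complement TTTCNNTTTC, where N is any base.
Rsad2: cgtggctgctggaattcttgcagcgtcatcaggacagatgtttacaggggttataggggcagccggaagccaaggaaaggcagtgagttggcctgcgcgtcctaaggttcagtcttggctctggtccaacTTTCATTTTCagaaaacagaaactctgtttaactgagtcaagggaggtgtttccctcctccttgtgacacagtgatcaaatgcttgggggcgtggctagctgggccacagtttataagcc
Ifit1: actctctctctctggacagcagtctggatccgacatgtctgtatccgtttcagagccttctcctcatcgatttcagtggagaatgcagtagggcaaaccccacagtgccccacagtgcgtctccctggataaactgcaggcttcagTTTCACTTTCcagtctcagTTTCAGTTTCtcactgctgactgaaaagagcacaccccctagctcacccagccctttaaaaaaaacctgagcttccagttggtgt
Ifit3: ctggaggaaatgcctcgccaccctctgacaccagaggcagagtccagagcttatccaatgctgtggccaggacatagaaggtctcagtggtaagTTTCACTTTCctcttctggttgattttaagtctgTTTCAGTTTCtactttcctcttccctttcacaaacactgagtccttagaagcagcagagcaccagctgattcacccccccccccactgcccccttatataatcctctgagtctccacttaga
Isg15: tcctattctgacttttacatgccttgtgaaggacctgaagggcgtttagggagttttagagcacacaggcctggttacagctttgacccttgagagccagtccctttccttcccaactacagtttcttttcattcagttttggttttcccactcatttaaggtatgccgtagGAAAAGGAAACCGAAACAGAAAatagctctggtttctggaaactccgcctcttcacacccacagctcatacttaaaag
Slfn4: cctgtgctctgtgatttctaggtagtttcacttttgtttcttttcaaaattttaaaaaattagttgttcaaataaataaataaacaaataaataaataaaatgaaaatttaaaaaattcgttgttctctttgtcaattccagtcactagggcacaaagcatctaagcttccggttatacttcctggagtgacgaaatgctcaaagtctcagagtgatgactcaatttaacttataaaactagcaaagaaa
The Rsad2 window is chr12:26456453-26456702 (minus strand), and its match starts 120 bases before the gene's start. The Ifit1 window is chr19:34640639-34640888 (plus strand), with matches 104 and 85 bases before the start. In the Ifit3 window, chr19:34583279-34583528 (plus strand), the matches lie 156 and 122 bases before the start. The Isg15 window is chr4:156200819-156201068 (minus strand), and it holds overlapping matches 78, 72 and 66 bases before the start. The Slfn4 window, chr11:83174936-83175185 (plus strand), holds no match to these letters. Over all 27025 mouse promoters of the same length, 821 (3.04%) held the motif. A match describes letters and is not a shown binding site.

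The libraries held 4322 (WT 1), 4182 (WT 2), 4164 (KO 1) and 3860 (KO 2) barcodes, with 21780914 to 27045250 UMIs each. Lmna was at 75.0 (WT 1), 55.3 (WT 2), 14.3 (KO 1) and 15.3 (KO 2) CPM over all kept cells, where CPM is a gene's UMIs per 1000000 UMIs of the same cells, lower in both libraries labelled as knockout. In neutrophils Lmna was near the limit of detection, with 19, 13, 6 and 5 UMIs in the same order. The signature cells held 1, 2, 1 and 0 Lmna UMIs, too few for a test. The libraries shared 27 cell barcodes in pairs, none of them among the signature cells. Each library is 1 mouse per the labels, so the spread between libraries holds differences between mice and between library preparations, which cannot be told apart.

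The signature cells did not hold neutrophil RNA alone. As the gate requires, they kept the 6 neutrophil genes of the rule, with a median log2 ratio of -0.40 to the other neutrophils. Ly6g, a neutrophil surface marker that the rule does not read, was detected in 10.7% of signature cells and 8.26% of the others. The direction differed by library. In signature cells it was 2.70% (1 of 37 cells) in WT 1 and 6.67% in KO 2, against 6.55% and 8.05% in the others. In WT 2 and KO 1 it was 20.6% and 13.3% against 9.70% and 8.44%. However, 38 of the 206 signature cells (18.4%) held at least 2 of the monocyte genes Csf1r, Ly6c2, Ccr2, F13a1, Fn1 and Cx3cr1. Among the other neutrophils 110 of 1708 (6.44%) did. These cells were deep, with a median of 7402 UMIs against 2351 in the remaining signature cells, so they supplied 47.5% of all signature-cell UMIs. That share was 74.3% in WT 1, 56.6% in WT 2, 39.1% in KO 1 and 18.4% in KO 2, higher in both WT libraries than in both KO libraries. The summed level of 11 monocyte genes in signature cells was 5425, 3754, 2177 and 1427 CPM in that library order, and 2434, 2005, 1960 and 1190 in the other neutrophils. It was 1916, 1265, 1288 and 1100 without the cells holding monocyte genes. Nr4a1, an immediate early gene of many cell types, made up most of what was left (1730 CPM in WT 1). In those remaining cells Ccr2, F13a1, Cd300e and Spn were at 0 in every library, in part because the filter reads Ccr2 and F13a1. Monocyte transcripts were not all gone, since the filter took out only cells with at least 2 of its genes. Of the 11 monocyte genes, 3 still reached 50 CPM in the remaining cells with or without the signature. The neutrophil genes of the rule had a median log2 ratio of 0.01. The share, the counts of genes and the genotype results below are therefore given with the cells holding monocyte genes, as the rule says, and without them. This second form was chosen after the data were seen.

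The signature took a larger share of the neutrophils in the KO libraries than in the WT libraries. It was 8.24% in WT 1 (37 of 449 cells, exact 95% interval 5.87 to 11.2%) and 6.43% in WT 2 (34 of 529, 4.49 to 8.87%). In KO 1 it was 16.1% (75 of 466, 12.9 to 19.8%) and in KO 2 12.8% (60 of 470, 9.88 to 16.1%). Both KO shares lay above both WT shares. The means were 7.33% ± 1.28 in WT and 14.4% ± 2.35 in KO (SD, n = 2 each), a difference of 7.10 percentage points and a ratio of 1.97. The exact permutation test of 2 against 2 libraries, two-sided, gave p = 0.33, the smallest it can give, so this test cannot pass 0.05 with 2 libraries a group. The intervals cover counting error only.

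When the cells holding monocyte genes were left out, the shares were 6.22%, 5.56%, 14.5% and 12% in WT 1, WT 2, KO 1 and KO 2, a ratio of 2.25. The median signature cell had 2875 and 2911 UMIs in the WT and 2466 and 2391.5 in the KO libraries. Without the cells holding monocyte genes it had 2263 and 2649 in the WT and 2311.5 and 2302 in the KO libraries, with overlap. The median of all gated neutrophils was 2366 and 2288 in the WT and 2126 and 2198 in the KO libraries. The part of depth in the share was not tested beyond the thinned setting that follows. When each cell was thinned to 1439 UMIs the shares were 4.50%, 2.89%, 10.7% and 8.45%, a ratio of 2.59. That setting left out 27, 44, 64 and 56 shallower neutrophils. The KO libraries stayed above the WT libraries in both settings. Neutrophils as a whole were 11.4%, 13.6%, 12.4% and 13.1% of the kept cells, with WT and KO libraries overlapping (difference 0.213 points, exact permutation p = 1).

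**Figure D1:**
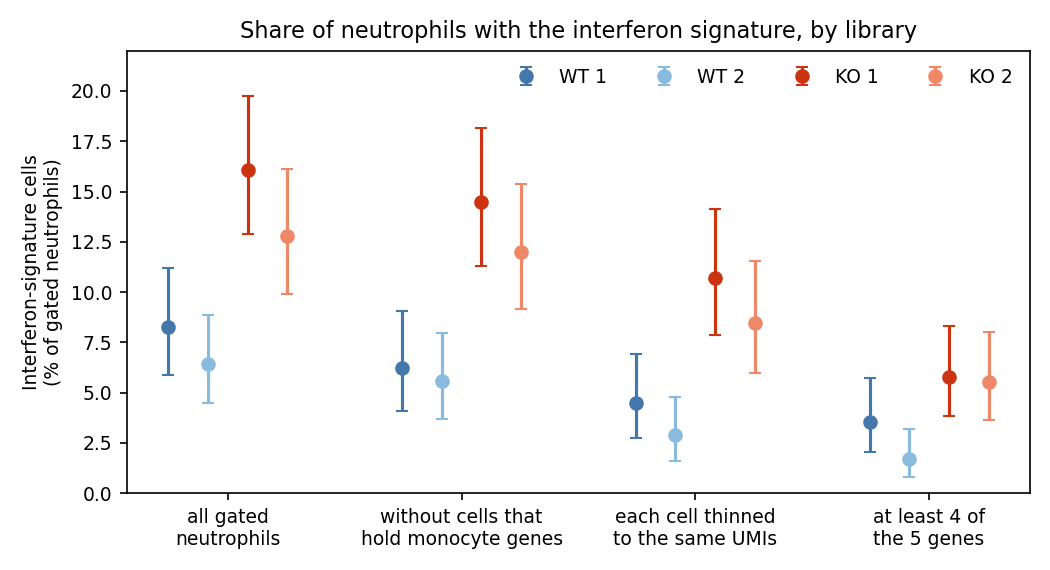
Share of gated neutrophils with the interferon signature (vertical axis, %) in each library, under 4 settings of the rule; points are libraries and bars are exact 95% intervals of counting error. In the first setting the KO libraries sit at 16.1% and 12.8% and the WT libraries at 8.24% and 6.43%, and both KO points lie above both WT points in all 4 settings.

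The threshold of 3 genes divided a graded distribution. None of the 5 genes was detected in 563 neutrophils (29.4%), 1 gene in 807 (42.2%) and 2 genes in 338 (17.7%). Just inside the rule were 128 cells with 3 genes, and 40 had 4 genes and 38 all 5. Cells just outside, with 2 genes, had 161 CPM of Rsad2 and 844 CPM of Isg15, and cells just inside had 598 and 1296. The cells with all 5 genes numbered 7, 1, 13 and 17 in WT 1, WT 2, KO 1 and KO 2.

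The most frequent combination was Rsad2, Isg15 and Slfn4 without an Ifit gene, in 91 of 206 cells (44.2%). All 5 genes together came next with 38 cells (18.4%), then Rsad2, Ifit1, Isg15 and Slfn4 with 22. Isg15 was detected in 98.1% of signature cells and 51.9% of the other neutrophils, and Slfn4 in 93.7% and 26.0%. Rsad2 was detected in 86.9% and 7.08%, Ifit1 in 44.2% and 1.52%, and Ifit3 in 33.5% and 0.351%. By the rule itself, every signature cell outside the first combination must hold Ifit1, Ifit3 or both. For comparison, B cells (median 3451 to 3925.5 UMIs) had an Isg15 UMI in 2.28 to 4.02% of cells, Rsad2 in 0.361 to 1.42% and Slfn4 in 0.237 to 0.883%. Free RNA in droplets and transcripts of the B cells themselves cannot be told apart in these values, and free RNA was not measured on its own. The share of B cells that met the 3-of-5 rule was 0 to 0.828% over the libraries.

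Levels in CPM are not divided by transcript length, since the kit counts transcript ends. Isg15 (chromosome 4, 156199424 to 156200818, minus strand, mm10) was at 1033 CPM in the signature cells of WT 1, 940 in WT 2, 2490 in KO 1 and 2184 in KO 2. In the other neutrophils it was at 488, 420, 659 and 526 CPM, so that it kept a clear level outside the signature. Slfn4 (chromosome 11, 83175186 to 83190216, plus strand) was at 540, 442, 1063 and 1131 CPM against 146, 120, 151 and 156. Both genes were higher in the signature cells of the KO libraries than of the WT libraries. The groups overlapped once the cells holding monocyte genes were left out, with Isg15 at 2527, 1748, 3688 and 2404 CPM and Slfn4 at 1730, 835, 1574 and 1208 in signature cells.

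Rsad2 (chromosome 12, 26442746 to 26456452, minus strand) was at 623, 317, 1373 and 851 CPM in signature cells and at 54.9, 52.0, 78.2 and 30.7 in the others. Ifit1 (chromosome 19, 34640871 to 34650009, plus strand) was at 183, 102, 557 and 363 CPM against 5.82, 6.41, 4.06 and 8.64. Ifit3 (chromosome 19, 34583531 to 34588731, plus strand) was at 283, 147, 418 and 374 CPM against 0, 0, 2.03 and 3.84. Outside the signature Ifit3 had few UMIs, and in signature cells it was at least 114-fold higher in WT 1 and at least 68.9-fold higher in WT 2 by the limit of 3 counts per library, and 206-fold higher in KO 1 (counting interval 55.6 to 1719). In KO 2, with 4 UMIs outside the signature, its log2 ratio was 6.10, the lowest of the 4 libraries. The mean log2 ratios over the 4 libraries were 1.55 for Isg15, 2.35 for Slfn4, 3.72 for Rsad2 and 5.05 for Ifit1, with a prior of 1 count.

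**Figure D2:**
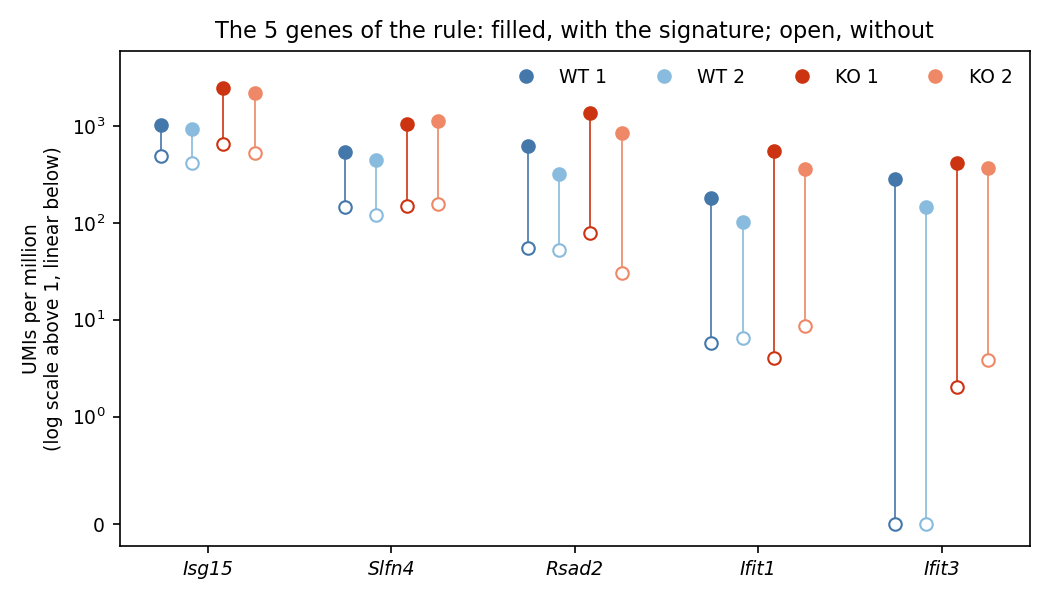
CPM (vertical axis, logarithmic above 1 and linear below) of the 5 genes of the rule in each library; filled points are neutrophils with the signature, open points those without, and lines join the 2 states of a library. In every library each filled point lies above its open point, and Ifit3 is at 0 in the other neutrophils of WT 1 and WT 2.

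Each gene also varied with the other 4. Among the 193 neutrophils with at least 3 of the other 4 genes, Ifit3 was at 293 CPM, and it had no UMI in the 563 with none of them. Rsad2 was at 907 CPM in cells with 3 or more of the others and at 43.4 in cells with none, and Ifit1 at 326 and 5.08. Isg15 was at 2143 and 496, and Slfn4 at 1012 and 137 CPM. These values are pooled over the libraries and include the cells holding monocyte genes. By library, Isg15 ranged from 698 against 451 CPM in WT 2 (10 cells with 3 or more of the others) to 4404 against 610 in KO 1 (28 cells). Since the same 5 genes chose the cells, this is a description of how they were detected together, with Isg15 and Slfn4 keeping a clear level elsewhere.

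Other interferon-stimulated genes were counted cell by cell after thinning to 1439 UMIs and without the cells holding monocyte genes. Of 58 such genes outside the rule, a mean of 4.46 was detected in cells with none of the rule genes (452 cells), 5.03 with 1 (677 cells) and 6.26 with 2 (286 cells). The mean was 8.44 with 3 rule genes (100 cells), 11.9 with 4 (33 cells) and 15.75 with all 5 (28 cells). The mean was thus higher with each further rule gene, and already higher with 2 than with none. The rule genes themselves were counted at the full depth of each cell, which was not made equal. Split by library, the highest numbers rest on few cells, and in KO 2 the mean was 14.4 with 4 genes and 13.6 with 5.

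**Figure D3:**
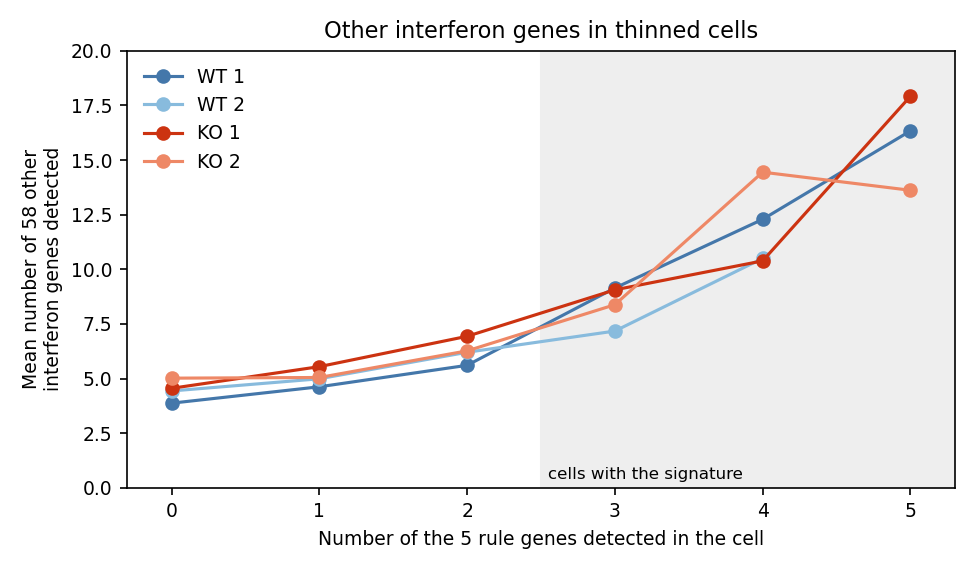
Mean number of 58 other interferon genes detected per thinned cell (vertical axis) against how many of the 5 rule genes the cell held at full depth (horizontal axis), 1 line per library; the shaded range is the signature. Every line ends higher than it starts, and the points at 4 and 5 genes rest on 3 to 13 cells per library, with no point for WT 2 at 5.

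Between signature cells and the other neutrophils of the same library, 2647 genes reached 50 CPM and were compared. Of these, 39 (1.47%) were at least 2-fold higher in every library and 2 (0.0756%) at least 2-fold lower, and the median log2 ratio of all genes was -0.01. In the comparison without the cells holding monocyte genes, 34 of 2410 genes (1.41%) were higher, 25 of them shared with the first count, and 0 were lower. Leaving out 1 library at a time gave 38 to 81 higher genes, with 81 reached without KO 1. Since the rule chose the cells through this contrast, the counts are descriptions.

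Slfn5, another Schlafen gene, was at 292, 272, 189 and 322 CPM in the signature cells of WT 1, WT 2, KO 1 and KO 2, and at 24.1, 21.4, 36.6 and 21.1 in the others. Its mean log2 ratio was 3.32, with library values from 2.32 to 3.83, and 3.79 without the cells holding monocyte genes. Ifit2, which lies in the same cluster on chromosome 19 as Ifit1 and Ifit3, was at 65.4, 67.9, 104 and 88.2 CPM against 0, 0.713, 1.02 and 0. It came from 22 of 206 signature cells and from 2 of 1708 others, so by the rule it was rare but near exclusive. In WT 1 and WT 2 it rested on 15 and 12 UMIs from 6 and 3 signature cells. Most of these WT UMIs lay in cells holding monocyte genes, as the last comparison below shows, whereas the KO UMIs did not. Ifit3b had a mean log2 ratio of 4.53. Its transcript is nearly identical to that of Ifit3, and the way reads were split between them is not given in the sources used here, so its values are uncertain.

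Antiviral effectors and nucleic acid sensors followed. Oasl1, an oligoadenylate synthetase-like protein, had a mean log2 ratio of 2.96. Cmpk2, a nucleotide kinase encoded next to Rsad2 on chromosome 12, had 2.60, Bst2, which tethers virus particles to the cell, 2.56, and Zbp1, a sensor of Z-form nucleic acids, 2.37. Ifi204, a DNA sensor of the Ifi200 family, had 2.35, as did Gbp2, a guanylate-binding GTPase, and Rnf213, a ubiquitin ligase, had 2.02. Each of these 7 genes was at least 2-fold higher in every library with and without the cells holding monocyte genes. Without those cells, Bst2 and Zbp1 were each at 26.1 CPM in the signature cells of WT 2. Those cells held only 76668 UMIs, so the 2 ratios rest on very few UMIs there. The lowest library log2 ratio of Bst2 was then 1.04. The transcript Gm13822 (1.94) overlaps the start of Oasl1 on the other strand. Whether the counting used strand is not given in the sources used here, so reads within the overlap cannot be told apart.

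Of the regulators of the pathway, 3 of 14 compared were at least 2-fold higher in every library. Usp18, which removes Isg15 from proteins and damps receptor signalling, was at 52.3, 62.3, 85.1 and 62.3 CPM in signature cells against 6.65, 3.56, 14.2 and 3.84. Irf7, the factor that amplifies interferon production, was at 440, 170, 282 and 316 CPM against 55.7, 75.5, 92.4 and 58.5, and without the cells holding monocyte genes its lowest library log2 ratio was 0.66. Stat2 was the third, with 100, 108, 34.8 and 31.1 CPM against 9.14, 13.5, 6.09 and 6.72. With the cells holding monocyte genes left out, 3 of 11 regulators passed in every library, Usp18 and Irf9 (mean log2 ratio 1.59) among them, and Stat2 and Irf7 no longer did.

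The receptor side did not stand out. None of 7 receptor and kinase genes compared was 2-fold higher or lower in every library, and their median log2 ratio was 0.06. Ifnar1 had a mean log2 ratio of -0.15, Ifnar2 of 0.07 and Jak1 of -0.02. Of 11 interferon genes listed, 10 had no UMI in any neutrophil, and Ifng had 1 UMI, in a WT 1 cell without the signature. No interferon transcript was thus seen in the signature cells, and a count of 0 leaves room for up to 3 UMIs.

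By list, 12 of 25 compared Ifit and other antiviral genes were at least 2-fold higher in every library (median log2 ratio 1.504). Of the Ifi200 family 3 of 5 were, of nucleic acid sensors 2 of 4 (Zbp1 and Ifih1), and of Schlafen genes outside the rule 1 of 3. Of genes best known from interferon gamma 4 of 5 were, namely Gbp2, Gbp7, Irgm1 and Igtp. Of MHC class I genes, 1 of 12 was, with a median of 0.57, and B2m had a mean log2 ratio of 0.24. Leaving out the cells holding monocyte genes gave 13 of 25 antiviral genes, 1 of 1 Ifi200 gene, 2 of 4 sensors, 1 of 3 Schlafen genes, 3 of 4 interferon gamma genes and 0 of 12 MHC class I genes.

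Neutrophil genes outside the interferon lists seldom differed 2-fold in every library. Of 25 genes of maturity and chemotaxis, 16 NF-kB and immediate early genes and 6 NADPH oxidase genes, none was 2-fold higher or lower in every library. Their median log2 ratios were -0.33, -0.23 and -0.07, and 0.02, 0.05 and -0.11 without the cells holding monocyte genes. The maturity and chemotaxis list summed to 23985 CPM in signature cells against 40345 in the others in WT 1. In KO 2 it summed to 51215 against 46504.5. The list of immature granule genes had a median of -0.74, and -0.64 without cells holding monocyte genes. The 2 genes counted as lower were Camp and Ltf, granule genes of immature neutrophils. Camp was at 0, 0, 0 and 5.19 CPM in signature cells and at 1752, 1044, 2.03 and 3905 in the others, but these UMIs came from 33 of 1708 cells, with up to 1914 in 1 cell, and from 1 of 206 signature cells. Ltf came from 31 of 1708 cells and from 2 of 206. A few very rich cells outside the signature set both values, and how many such cells fall among 206 was not tested.

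**Figure D4:**
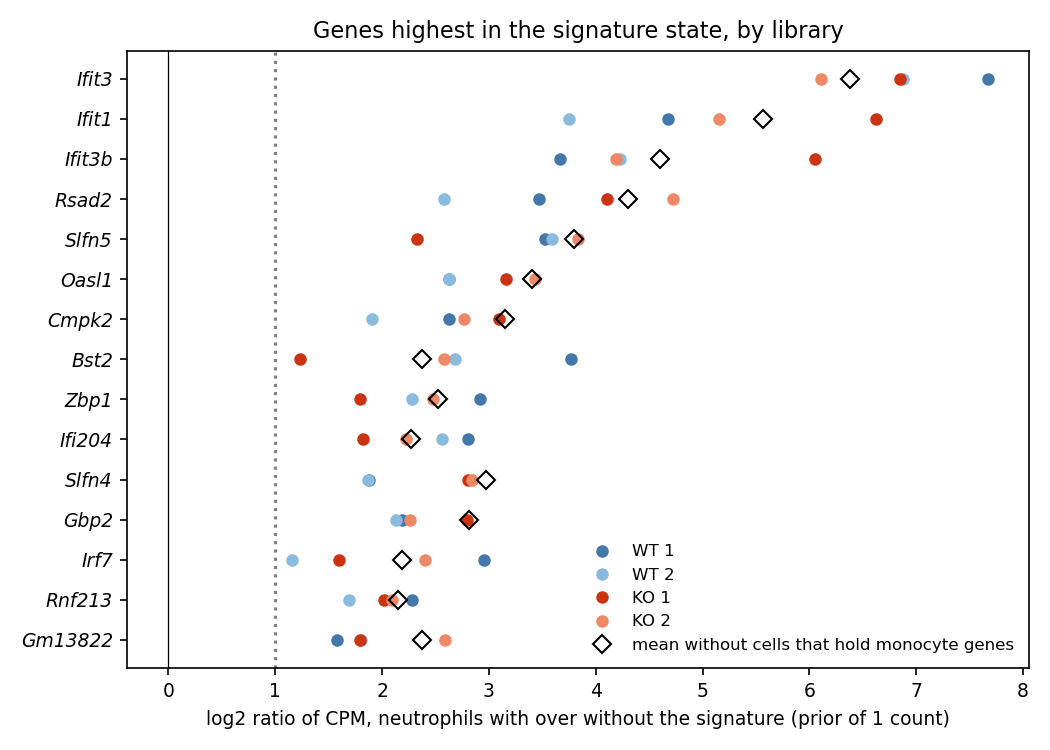
Log2 ratio of CPM between neutrophils with and without the signature (horizontal axis, prior of 1 count) for the genes named as highest; coloured points are the 4 libraries and open diamonds the mean without cells that hold monocyte genes. All library points lie right of the dotted line at 2-fold, with Ifit3 farthest right and Gm13822 at a mean of 1.94.

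Of the 39 higher genes, 32 had a promoter in RefSeq, and 14 of these (43.8%) held the response element letters shown above. Among all compared genes 87 of 2097 promoters (4.15%) held them. The 14 include Isg15, Rsad2, Ifit1 and Ifit3 of the rule, and Ifit3b, Slfn5, Oas3, Bst2, Stat2, Gbp2, Gbp7, Irgm1, Igtp and Ifi207. Of the 25 genes that were higher with and without the cells holding monocyte genes, 11 of 21 promoters (52.4%) did. All 5 rule genes are among the 39 and among the 25, and 4 of their 5 promoters held the letters. Both shares thus include genes that chose the cells, and they are descriptions with no test. TTCNNNGAA, the letters of the gamma-activated site, is its own reverse complement, and it was in 4 of 32 promoters (12.5%) of the higher genes, in 123 of 2097 (5.87%) of the compared genes and in 7.18% of all promoters. The 2 motifs were searched in the 250 bases before the start, on both strands.

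The rule did not read the genotype, but it admitted cells holding monocyte genes unequally, as 32.4% and 20.6% of signature cells in the WT and 17.3% and 10% in the KO libraries. Summed over the signature cells of each library, 28 of 2817 genes (0.994%) were higher and 114 (4.05%) lower in KO than in WT by edgeR's quasi-likelihood test with Benjamini-Hochberg adjustment at 0.05. All of these calls were lost without the cells holding monocyte genes, where edgeR called 0 of 1581 genes in either direction (smallest adjusted p = 0.353, 118 genes at an unadjusted p under 0.05). They were also lost when 8 doublet-like signature cells were left out (0 of 2687 genes, smallest adjusted p 0.192, 223 genes at an unadjusted p under 0.05). Leaving out 1 library at a time gave 15 (without WT 1) to 86 (without KO 1) higher and 53 to 182 lower genes, from the same libraries. The share of UMIs from cells holding monocyte genes moves with genotype, as given above, and its part in each value was not tested beyond these fits. The levels below are CPM after TMM scaling.

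Socs3, the feedback inhibitor of cytokine receptors that act through Stat3, had the smallest p among the higher genes. It was at 82.2 and 70.7 CPM in the WT and at 475 and 453 in the KO signature cells, a log2 fold change of 2.58 ± 0.29 (SE; edgeR adjusted p = 6.25e-04). Once the cells holding monocyte genes were left out, its levels were 147, 130, 590 and 474 CPM, with the KO libraries again above both WT libraries, and its log2 fold change was 1.94 ± 0.33 (edgeR adjusted p = 0.353). In neutrophils without the signature Socs3 was at 147, 225, 469 and 419 CPM and rose by 1.25 ± 0.20 (edgeR adjusted p = 0.0102). In cells taken by the rule Socs3 thus rose in both neutrophil states.

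The chemokine genes Ccl3 and Ccl4, which draw other leukocytes, also rose in signature cells taken by the rule. Ccl3 was at 174, 218, 746 and 877 CPM (log2 fold change 2.06 ± 0.27, edgeR adjusted p = 0.00121), and Ccl4 at 374, 308, 1458 and 984 (1.83 ± 0.27, edgeR adjusted p = 0.00239). Ier3, an immediate early gene, was at 137, 257, 617 and 900 CPM (1.97 ± 0.33, edgeR adjusted p = 0.00521). All 3 genes were higher in both KO libraries than in both WT libraries. Without the cells holding monocyte genes the log2 fold changes were 1.23, 1.28 and 1.20, and none passed (edgeR adjusted p = 0.392, 0.652 and 0.495).

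The 5 genes of the rule had a median log2 fold change of 1.27 between KO and WT signature cells, beside -0.003 for all genes tested. Since detection of these genes chose the cells, their fold changes are a description with no test, although 4 of them stand among the 28 genes counted above. The fold changes were 1.27 for Isg15, 1.19 for Slfn4, 1.70 for Ifit1, 1.27 for Rsad2 and 0.90 for Ifit3. In the fit without the cells holding monocyte genes the median was 0.48, with 0.48 for Isg15, 0.11 for Slfn4, 1.27 for Ifit1, 0.40 for Rsad2 and 1.89 for Ifit3. In that fit Ifit3 was at 257, 81.1, 768 and 460 CPM and Ifit1 at 441, 162, 953 and 481. WT and KO did not overlap for Ifit3 and Ifit1, but the WT 2 signature cells then held only 76668 UMIs. Both WT 2 levels thus rest on few UMIs. Slfn4 was at 1873, 1038, 1764 and 1364, with overlap. Rsad2 and Isg15 overlapped too, at 1764, 548, 2133 and 884 CPM and at 2527, 1748, 3688 and 2404 CPM before TMM scaling.

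Other interferon genes did not move as 1 block in the signature cells. Of 29 tested Ifit and antiviral genes outside the rule, 1 was higher (Ifit3b, 1.88, edgeR adjusted p = 0.0136) and 3 lower in KO, with a median of 0.40. Bst2 was among the lower ones, with 315, 206, 79.2 and 101 CPM (log2 fold change -1.56 ± 0.34, edgeR adjusted p = 0.0229). Of 6 Ifi200 family genes 3 were lower, among them Mndal (-2.85, edgeR adjusted p = 9.08e-04). Without the cells holding monocyte genes 0 of 20 antiviral genes passed, 18 of the 20 had a positive fold change, and the median was 0.26. Over all genes in that fit 774 of 1581 were positive, with a median of -0.014. Since detection of other interferon genes went with the number of rule genes that chose the cells, this count is a description.

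The genes with the smallest p among the lower ones were led by monocyte genes. Ccr2, a chemokine receptor of inflammatory monocytes, was at 617, 565, 83.3 and 59.6 CPM (log2 fold change -3.01 ± 0.29, edgeR adjusted p = 4.68e-04). Its UMIs came from only 6, 4, 4 and 1 signature cells in WT 1, WT 2, KO 1 and KO 2. Ly6c2, a surface marker of inflammatory monocytes, had -3.14, Ms4a4c -3.42, Plac8 -2.23 and Tmsb10 -2.52. Ly6c2 came from 11, 9, 9 and 6 signature cells, and 1 cell held 209 of 330 UMIs in WT 1 and 1 cell 90 of 165 in WT 2. Of 10 monocyte genes tested, 5 were lower and the median was -2.13. Without the cells holding monocyte genes Plac8 had 0.56 and Tmsb10 0.12, and Ccr2 had no UMI left in signature cells. Of 79 ribosomal protein genes, a group chosen after the values were seen, 37 were lower in signature cells (median -0.97) and 0 of 71 without the cells holding monocyte genes (median 0.45). Rps28, a protein of the small ribosomal subunit, was one of them, with -2.60 by the rule and -1.02 (edgeR adjusted p = 0.610) without those cells.

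**Figure D5:**
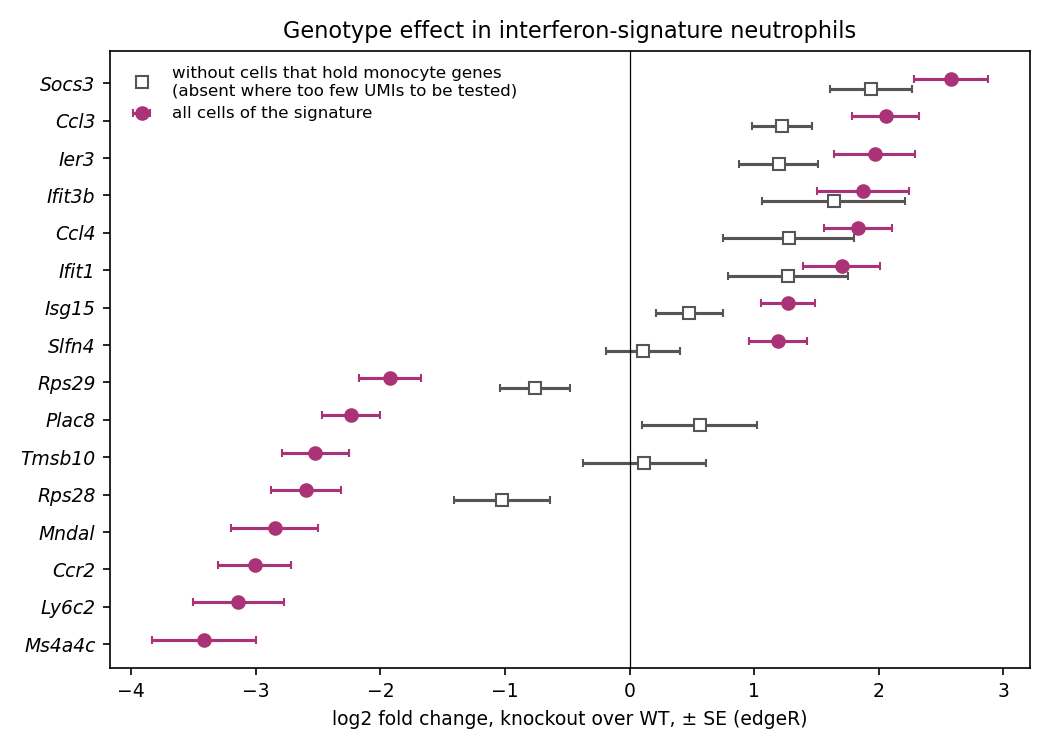
Log2 fold change, KO over WT, with its SE (horizontal axis, edgeR) in interferon-signature neutrophils for the genes with the smallest p in each direction; filled circles are all signature cells and open squares those left after cells with monocyte genes were taken out, absent where too few UMIs remained. The values of Isg15, Ifit1 and Slfn4, which chose the cells, are descriptions. Socs3 stays at 1.94 among the open squares, while Slfn4, Plac8 and Tmsb10 lie near or above 0 at 0.11, 0.56 and 0.12.

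The genotype effect in signature cells was set against that in the other neutrophils in 1 fit. It differed for 9 of 5749 genes in edgeR, 4 of them more positive in signature cells (0.0696%) and 5 more negative (0.087%). The 4 were Ccl4, Ccl3, Ptgs2 and Tnfaip3, genes of inflammatory signalling, and the 5 were Ms4a6c, S100a4, Lyz2, Ms4a6b and Ly6c2, which monocytes express strongly. None of the 9 was called without the cells holding monocyte genes, and other genes were (2 more positive, 0.0453%, and 1 more negative, 0.0226%, of 4416), and DESeq2 called 0 in either direction (168 genes at an unadjusted p under 0.05). Without WT 2 the counts were 117 and 94. In neutrophils without the signature 7 of 6217 genes were higher (0.113%) and 19 lower (0.306%) in KO.

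A last comparison, added after the data were seen, took all gated neutrophils of a library together, so that the interferon genes played no part in the choice of cells. In it a larger share of signature cells and a higher level per cell cannot be told apart. By the rule, 13 of 6680 genes were higher (0.195%) and 43 lower (0.644%) in KO by edgeR, and without KO 1 these counts were 70 and 193. Slfn4 was at 197, 162, 337 and 335 CPM (log2 fold change 0.90 ± 0.16, edgeR adjusted p = 0.0136), and Isg15 at 542, 499, 1028 and 852 (0.85 ± 0.18, edgeR adjusted p = 0.0312). Both lay higher in KO without overlap. Without the cells holding monocyte genes they had 0.66 (edgeR adjusted p = 0.248) and 0.71 (edgeR adjusted p = 0.239).

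Without those cells edgeR called 11 genes higher (0.2% of 5488) and 7 lower (0.128%). Of the interferon lists, 1 of the 5 rule genes, 4 of 29 antiviral genes, 1 of 5 Schlafen genes and 1 of 14 regulators (Socs3, 1.20 ± 0.20, edgeR adjusted p = 0.0306) were higher. Ifit3 was at 13.9, 4.59, 115 and 62.2 CPM (log2 fold change 3.26 ± 0.48, edgeR adjusted p = 0.0394). Ifit2 had 2 and 1 UMIs in the WT and 28 and 17 in the KO libraries (3.84 ± 0.66, edgeR adjusted p = 0.0306), and Ifit1bl1 had 1, 0, 22 and 14 UMIs (edgeR adjusted p = 0.0364). Ifi27l2a, a mitochondrial protein gene, was at 307, 419, 811 and 1179 CPM (1.45 ± 0.22, edgeR adjusted p = 0.0189). Slfn5 had 24.8, 22.97, 59.3 and 62.2 CPM (1.35 ± 0.25, edgeR adjusted p = 0.0393), and Ifit3b 2.47 ± 0.44 (edgeR adjusted p = 0.0364). With the cells holding monocyte genes Ifit2 (1.01), Ifit3 (1.36), Ifit1bl1 (2.34) and Slfn5 (0.30) did not pass, with edgeR adjusted p from 0.160 to 0.755. The KO libraries were above both WT libraries for Ifit3, Ifit2, Ifit1bl1, Ifi27l2a, Slfn5 and Ifit3b in the fit without those cells, and the call of 4 of them rests on leaving those cells out.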

How the data were processed

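The authors deposited 1 matrix per library, with unnormalized UMI counts for each barcode called as a cell. There were 4 libraries, each from 1 mouse per the labels. Cell Ranger 3.0.2, Seurat 3.0.0 and the genome mm10 are named per the submitters' processing notes, and the values show no scaling or correction. Free RNA was not subtracted. No columns of other samples were present.

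The rule was applied with Python 3.11.15, and doublet-like barcodes (the highest 0.8% per 1000 cells by a score against simulated doublets) were kept, with their removal as an alternative. The members, the gene lists and the tests were chosen with earlier results of these data known.

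The states were compared within each library by log2 ratios of CPM with a prior of 1 count, for genes at 50 CPM or more, with no test. Genotypes were compared on UMIs summed per library with edgeR 4.0.16 (filterByExpr, TMM, robust quasi-likelihood fit, Benjamini-Hochberg over all genes tested, threshold 0.05), after a check on simulated data. DESeq2 1.42.0, other scalings and filters, thinning, stricter cell limits, a replicate block and leaving out each library were alternatives. Shares have exact (Clopper-Pearson) 95% intervals.

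Named genes were the 5 of the rule and Lmna, the 15 highest and 10 lowest mean log2 ratios among genes at least 2-fold different in every library with 100 CPM or more, the 8 smallest p values in each direction of each genotype test (3, named as not passing, where under 3 passed), and up to 6 members per list by mean CPM. Of the lowest only Camp and Ltf existed. Genes given after their values were seen, such as the 6 interferon genes of the last comparison, Bst2 and Mndal in the genotype contrast, and the ribosomal protein genes, describe counts. Cells are not replicates. Promoters came from RefSeq on GRCm38.p6 and gene positions from GENCODE M21 on mm10. The same replicate number in WT and KO names no shared animal or batch in the labels, so the numbers were not taken as pairs. Some results are not reported here.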

Additional observations from a re-analysis of the deposited data

Results flagged for a closer look

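For 9 genes the effect of genotype differed between neutrophils with and without the signature, in the edgeR test of the difference itself (adjusted p from 0.0184 to 0.0422). On the log2 scale, signature minus other neutrophils, the difference was 1.52 for Ccl4, 1.60 for Ccl3, 1.09 for Ptgs2 and 1.27 for Tnfaip3. It was -1.79 for Ms4a6c, -1.81 for S100a4, -1.02 for Lyz2, -2.33 for Ms4a6b and -2.19 for Ly6c2. Ccl3 and Ccl4 had log2 fold changes of 0.58 and 0.40 in the other neutrophils, which edgeR did not call (adjusted p = 0.420 and 0.713).

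Cells holding monocyte genes supplied 74.3% of the signature-cell UMIs in WT 1, 56.6% in WT 2, 39.1% in KO 1 and 18.4% in KO 2. Without those cells the differences were 0.87 for Ccl4 (edgeR adjusted p = 0.241), 0.82 for Ccl3 (0.735), 0.46 for Ptgs2 and 0.61 for Tnfaip3, and those of Lyz2 and Ly6c2 were -0.16 and 1.76. None of the 9 genes passed in that fit.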

How the results depend on the processing

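The difference in signature share kept its sign in all 12 other settings. It was 3.03 points when at least 4 of the 5 genes were required and 5.43 to 8.76 when 1 library was left out. The difference in neutrophils as a share of kept cells was -2.23 points under stricter cell limits (at least 500 genes, at most 5% mitochondrial UMIs) and -0.908 to 1.33 with 1 library left out. Genes 2-fold higher in every library numbered 13 at 200 CPM or more and 38 to 81 with 1 library left out. Lower ones numbered 0 with a prior of 5 counts, 8 in thinned cells, 0 without cells holding monocyte genes and 2 to 4 with 1 library left out.

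Genotype counts are given as higher and lower. In signature cells they were 13 and 50 with DESeq2, 69 higher with no filter on low counts, 0 and 0 both without cells holding monocyte genes and without doublet-like barcodes, and 15 to 86 and 53 to 182 with 1 library left out. In neutrophils without the signature they were 14 higher without cells holding monocyte genes, 4 higher with DESeq2, 28 and 70 with no filter, 10 lower under stricter cell limits, and 13 to 34 and 44 to 105 with 1 library left out. In all gated neutrophils they were 7 lower without cells holding monocyte genes, 53 and 112 with no filter, and 17 to 70 and 50 to 193 with 1 library left out. The difference between the effects gave 2 and 1 without cells holding monocyte genes, 0 and 0 with DESeq2, 54 and 36 with no filter, 55 and 59 under stricter cell limits, and 6 to 117 and 4 to 94 with 1 library left out. Where a library was left out, the lone library of its group was assumed to vary like the other group. The cause of these moves was not tested.

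With the replicate number as a block the counts were 115 and 210 in signature cells, 35 and 57 in neutrophils without the signature, and 72 and 145 in all gated neutrophils. Same-numbered libraries had a correlation of deviations of 0.153 in signature cells over 2 pairs. The numbers are not a pairing in the labels.

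With 34 to 75 signature cells and 2 mice per group, the exact permutation test of a share could not pass 0.05, and genes of a few UMIs per library could not be compared. All genotype calls in signature cells rest on sums in which cells holding monocyte genes carry 18.4 to 74.3% of the UMIs.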

Other observations

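Neutrophils were not the only cells with the signature. By the same count of at least 3 of the 5 genes, 16.5% (30 of 182), 13.7% (33 of 241), 18.6% (44 of 237) and 14.2% (35 of 246) of cells gated as classical monocytes held it in WT 1, WT 2, KO 1 and KO 2. Their median depth was 9900 to 10658 UMIs, against 2126 to 2366 in neutrophils, and the WT and KO shares overlapped. In these monocytes Ifit3 was detected in 17.01 to 23.6% of cells and Slfn4 in 6.64 to 16.9%. Nonclassical monocytes held the signature in 0 to 2.21% of cells, NK cells in 0 to 0.952% and T cells in 0.335 to 1.80%. Alveolar macrophages held it in 0 of 144, 142, 39 and 25 cells, in spite of 13818 to 17302.5 UMIs in the median cell, with exact upper limits of 2.53%, 2.56%, 9.03% and 13.7%.

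Cxcl10, an interferon-stimulated chemokine gene, was carried by few signature cells, 3, 1, 7 and 1 in WT 1, WT 2, KO 1 and KO 2, and 1 cell of KO 1 held 66 of that library's 119 UMIs. Cd274, which encodes the checkpoint ligand PD-L1, was detected in 24.8% of signature cells (exact 95% interval 19.0 to 31.2%) and in 11.7% of the other neutrophils (10.2 to 13.3%). Its share was higher in the signature cells of each library, at 27.0%, 20.6%, 28.0% and 21.7% against 11.9%, 9.70%, 13.3% and 12.4%. Signature cells were also somewhat deeper, with medians of 2391.5 to 2911 UMIs against 2079 to 2350.5, and the part of depth was not tested. The Cd274 shares include the cells holding monocyte genes, 18.4% of signature cells and 6.44% of the others, and their part was not tested either.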
